A study of Rattus norvegicus with 9 samples.

Results

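The genes described here encode the subunits of the hypoxia-inducible factors (HIFs) and the proteins that tie them to oxygen. They are Hif1a, Epas1, Arnt, Arnt2, Egln1, Egln2, Egln3, Hif1an, Vhl and Cited2, and their rows were taken from the expression table by symbol. The genes were chosen with earlier results of these data known. All 10 were among the 19919 genes listed and among the 12513 genes tested, and each was above 1 FPKM in all 9 libraries. The cells were cardiosphere-derived cells (CDCs), primary stromal cells grown out of the hearts of 4-week-old male Sprague Dawley rats of WT genotype, and no group carried an added allele or agent. They were cultured for 3 days on polystyrene (PS), the usual culture plastic, on an ultralow attachment (ULA) surface, or on OPC, an octyl hydroxypropyl cellulose ester that forms a liquid-crystal layer. RNA of 3 biological replicates per substrate was sequenced, which gave 9 libraries. The sources used here do not say how many rats gave each replicate or whether replicates came from separate isolations, so the p-values measure only the spread between these cultures.

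HIFs are pairs of an alpha and a beta subunit that bind DNA and switch on genes for glucose uptake, glycolysis, vessel growth and mitophagy. When oxygen is present, prolyl hydroxylases mark the alpha subunit, the VHL protein recognizes the mark and ubiquitinates it, and the subunit is degraded, while a separate asparaginyl hydroxylase keeps it from its coactivators. The main control is therefore on the protein, which an RNA measurement does not show, but Egln1 and Egln3 are themselves HIF target genes in many cell types.

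Expression is given in FPKM, sequenced fragments per length of gene and per size of library, so values of different genes are on 1 scale. A listed value can still misstate the level of a gene. The reference gene Hprt1 was listed at 36.2 FPKM in ULA replicate 1 and at 0.478 and 0.233 in ULA replicates 2 and 3. Orders, shares and ratios between genes are therefore those of the listed values. Differences are log2 fold changes of FPKM + 1, tested with limma, a linear model fitted to all genes together, and a gene was called at an adjusted p of at most 0.05. Library sums lay between 444736.4 and 460731.7 FPKM, and the depth was known only between libraries, at 0.874 to 1.18 times that of the first PS library. The cell type label was checked by markers. All 9 mesenchymal and CDC markers passed the filter on low values, with sums of 6830 to 7250 FPKM in PS, 4210 to 4660 in ULA and 4790 to 4900 in OPC. Most of each sum was Col1a1, at group means of 5833, 3320 and 3756 FPKM. Between ULA and PS, 5 of these markers were called higher and 2 lower, against 38.4% and 30.5% of all genes tested. Nt5e stood at 9.24, 84.6 and 21.3 FPKM in PS, ULA and OPC, and Thy1 at 137, 20.9 and 29.3. Of 6 cardiomyocyte markers 0 passed, and of 5 matched endothelial markers only Erg did. Macrophage and leukocyte markers, of which 2 of 6 passed, summed to 3.29 to 3.97 FPKM in PS, 41.4 to 41.5 in ULA and 22.5 to 26.5 in OPC, nearly all of it Cd68, while the pan-leukocyte gene Ptprc stayed at group means of 0.00383, 0.00806 and 0.0275 FPKM. Smooth muscle and pericyte markers, of which 3 of 5 passed, summed to 2480 to 2550, 50.2 to 52.7 and 74.3 to 130 FPKM in the same order. In such bulk samples, fewer cells of a type and less RNA per cell cannot be told apart.

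Between ULA and PS, the hydroxylase genes Egln3 and Egln1 moved most of the 10. They were 16.5-fold and 9.38-fold higher in the ULA group, Hif1a was 2.48-fold and Vhl 2.13-fold higher, and Arnt2 was 4.22-fold lower. In all, 7 of the 10 genes were higher in ULA and 2 were lower, where 38.4% and 30.5% of all genes tested were called higher and lower. By a log2 fold change of at least 1, 4 were higher and 1 was lower, against 8.42% and 7.39% of all genes. The median log2 fold change was 0.40 over the 10 genes and 0.06 over all genes tested. Vhl, at 1.02, was just past that size, and fell under it without PS replicate 1 (0.98) or without ULA replicate 2 (0.90).

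Between OPC and PS, all 10 genes were called. Egln3 was 7.52-fold and Hif1a 2.85-fold higher in the OPC group, and Egln1 only 1.66-fold higher. Of the 10 genes 9 were higher and 1, Arnt2, was lower, against 40.4% and 23.9% of all genes, and 2 were higher and 0 lower by a log2 fold change of at least 1, against 6.6% and 6.11%. The median log2 fold change was 0.45 over the 10 genes and 0.11 over all genes tested.

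Between OPC and ULA, Egln1 and Egln3 were lower while Arnt2, Epas1 and Hif1a were higher, and Arnt, Egln2 and Hif1an were not called. Egln1 and Egln3 were 5.66-fold and 2.19-fold lower in the OPC group, and Arnt2, Epas1 and Hif1a were 3.05-fold, 1.45-fold and 1.15-fold higher. The counts of 4 higher and 3 lower of 10 stood against 32.2% and 21.7% of all genes, so their number alone is near the background. With a log2 fold change of at least 1, 1 gene was higher and 2 were lower, against 1.81% and 2.52% of all genes. The medians were 0.10 and 0.06. These genome-wide shares move with scaling. Of all genes called between OPC and ULA, 59.8% were higher in OPC, and after upper-quartile rescaling 49.8% were, so small positive differences between these groups, such as those of Hif1a, Egln2 and Cited2, are given under both. The 3 comparisons share groups and are not independent of each other.

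**Figure D1:**
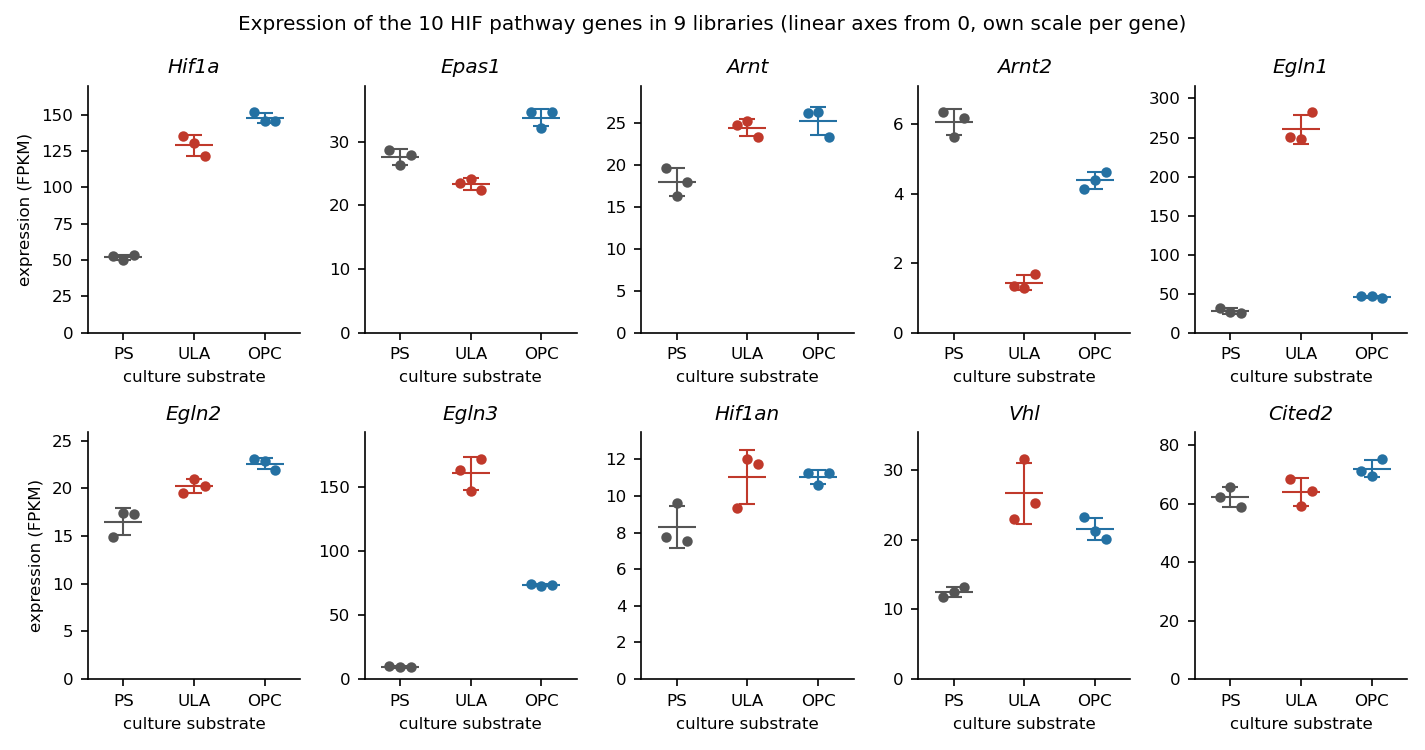
Expression (FPKM, linear axes from 0 with a scale for each gene) of the 10 genes in the 3 PS, 3 ULA and 3 OPC libraries. Points are libraries and bars are the mean and SD of a group, and Egln1 reaches 248 to 282 FPKM in ULA against 44.5 to 46.9 in OPC and 25 to 31.8 in PS.

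The alpha subunit Hif1a, on chromosome 6 from 96810907 to 96856052 (rn6, plus strand), encodes HIF-1alpha, the oxygen-regulated part of HIF-1. It stood at 52.4, 50 and 53.4 FPKM in the PS libraries, 135, 130.4 and 121 in the ULA libraries and 152, 146 and 146 in the OPC libraries. The ULA and OPC libraries all lay far above PS, and the OPC libraries lay above the ULA libraries with no overlap. The log2 fold change was 1.3 (standard error 0.04) for ULA vs PS, with an adjusted p of 7.09e-09 from limma, and 1.49 (0.04) for OPC vs PS, with an adjusted p of 4.50e-09. The step from ULA to OPC was much smaller, at 0.20 (95% interval 0.09 to 0.30, adjusted p = 0.00483 from limma), and 0.13 (adjusted p = 0.0449) after upper-quartile rescaling. Of all genes tested, 89.1% lay below Hif1a in PS, 96.5% in ULA and 97.0% in OPC.

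Epas1, which encodes HIF-2alpha, the other main alpha subunit and first known from endothelium, lies on the same chromosome from 10306405 to 10387265 (rn6). Its levels were 28.8, 26.3 and 27.9 FPKM in PS, 23.6, 24.2 and 22.4 in ULA and 34.6, 32.2 and 34.6 in OPC. The 3 groups did not overlap, with ULA lowest and OPC highest. Epas1 was the alpha subunit that fell in ULA (log2 fold change -0.23 against PS, adjusted p = 0.00193 from limma), and it was higher in OPC than in ULA by 0.51 (standard error 0.05, adjusted p = 2.23e-05 from limma) and than in PS by 0.28 (adjusted p = 6.78e-04). Erg, the endothelial marker that passed the filter, was lower in OPC than in ULA (log2 fold change -0.56), the direction opposite to that of Epas1. The other matched endothelial markers, all under the filter, went both ways. In ULA and OPC, Vwf stood at 0.0765 and 0.0854 FPKM and Kdr at 0 and 0.00699, while Tek stood at 0.541 and 0.456 and Tie1 at 0.0357 and 0. The part of endothelial cells in the Epas1 levels was not tested. Hif3a, the remaining alpha subunit, was listed at 0 in the PS and ULA groups and at a mean of 0.00944 FPKM in OPC, and was not tested.

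Because both alpha subunits were read in each library, their ratio is free of library scaling. Hif1a over Epas1 was 1.88 ± 0.0491 in PS, 5.51 ± 0.195 in ULA and 4.37 ± 0.164 in OPC (mean ± SD, n = 3). The groups did not overlap, and each pair gave an exact two-sided permutation p = 0.1, the smallest value that 3 against 3 libraries can give. The sum of both was 79.6 ± 2.85 FPKM in PS, 152 ± 7.83 in ULA and 182 ± 4.17 in OPC, again with no overlap and an exact p of 0.1 for each pair. ULA libraries thus held the strongest tilt toward Hif1a RNA, and OPC libraries held the most alpha subunit RNA in sum.

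The beta subunits are not regulated by oxygen and are shared with other factors of the same family. Arnt, on chromosome 2 from 196594303 to 196651179, encodes HIF-1beta, the usual partner, and stood at 19.7, 16.3 and 17.9 FPKM in PS, 24.7, 25.3 and 23.3 in ULA and 26.1, 26.3 and 23.3 in OPC. The ULA and OPC libraries all lay above PS (log2 fold change 0.43 for ULA, adjusted p = 4.87e-04 from limma, and 0.47 for OPC, adjusted p = 2.92e-04). OPC and ULA overlapped, and their difference of 0.04 had a 95% interval of -0.12 to 0.21 (adjusted p = 0.629 from limma).

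Arnt2, a partner best known from neurons, lies on chromosome 1 from 146399217 to 146556171 and was the lowest of the 10 genes in every group. It stood at 6.34, 5.63 and 6.19 FPKM in PS, 1.34, 1.29 and 1.67 in ULA and 4.13, 4.4 and 4.61 in OPC. The groups did not overlap, and OPC lay nearer to PS than to ULA. The log2 fold change was -1.54 (standard error 0.08) for ULA vs PS (adjusted p = 1.80e-07 from limma), 1.15 (0.08) for OPC vs ULA (adjusted p = 4.60e-06) and -0.39 for OPC vs PS (adjusted p = 0.00268). At these low levels the added 1 FPKM narrows the difference, and with 0.1 FPKM added instead the change from PS to ULA was -2.01. The smooth muscle and pericyte marker sum followed the same order of groups (PS over OPC over ULA), and it was almost all Acta2, at group means of 2487, 41.7 and 94.9 FPKM in PS, ULA and OPC. Myh11, another of these markers that passed the filter, had the same order, at group means of 9.306, 1.532 and 1.996 FPKM in PS, ULA and OPC. It was higher in OPC than in ULA (log2 fold change 0.24, adjusted p = 0.02925 from limma). Cspg4, a pericyte marker, went the other way between OPC and ULA (log2 fold change -1.02, adjusted p = 8.41e-06 from limma). The part of such cells in the Arnt2 levels was not tested.

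Arnt2 made up 25.3 ± 0.758% of the beta subunit FPKM in PS, 5.57 ± 0.989% in ULA and 14.8 ± 1.49% in OPC. The sum of both beta subunits was 24.0 ± 2.05, 25.9 ± 0.787 and 29.6 ± 1.46 FPKM, and PS and ULA overlapped in it (exact permutation p = 0.2). Alpha over beta subunits gave 3.33 ± 0.186 in PS, 5.89 ± 0.187 in ULA and 6.14 ± 0.318 in OPC. On this ratio OPC and ULA overlapped (exact two-sided permutation p = 0.3), while PS was below both.

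Egln1, Egln2 and Egln3 encode the prolyl hydroxylases PHD2, PHD1 and PHD3. PHD2 is the main oxygen sensor in most cells, PHD3 is the member whose RNA is most often described as HIF-induced, and PHD1 is usually not induced by low oxygen. HIFs bind DNA at a short core, ACGTG or GCGTG, and both letter strings were searched on both strands in the 300 bases around each RefSeq start site (250 before it and 50 after it, build GRCr8, a newer build than the rn6 of the expression table). The 250 bases before the start are printed for Egln1 and Egln3, whose RNA differed most between the substrates, and for Hif1a, all 5′ to 3′ along the gene, with each core in capitals.
Egln1 promoter (chr19:69804682-69804931, minus strand): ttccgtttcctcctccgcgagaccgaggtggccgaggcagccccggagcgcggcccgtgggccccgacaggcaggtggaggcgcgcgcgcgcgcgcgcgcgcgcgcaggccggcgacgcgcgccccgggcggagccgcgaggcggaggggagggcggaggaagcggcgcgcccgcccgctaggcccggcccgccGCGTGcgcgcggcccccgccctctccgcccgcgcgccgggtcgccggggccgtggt
Egln3 promoter (chr6:77411016-77411265, minus strand): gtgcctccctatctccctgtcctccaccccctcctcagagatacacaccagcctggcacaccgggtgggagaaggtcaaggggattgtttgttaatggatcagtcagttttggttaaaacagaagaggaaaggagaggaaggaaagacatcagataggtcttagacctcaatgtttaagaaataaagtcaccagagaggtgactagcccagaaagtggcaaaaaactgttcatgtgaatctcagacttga
Hif1a promoter (chr6:98359648-98359897, plus strand): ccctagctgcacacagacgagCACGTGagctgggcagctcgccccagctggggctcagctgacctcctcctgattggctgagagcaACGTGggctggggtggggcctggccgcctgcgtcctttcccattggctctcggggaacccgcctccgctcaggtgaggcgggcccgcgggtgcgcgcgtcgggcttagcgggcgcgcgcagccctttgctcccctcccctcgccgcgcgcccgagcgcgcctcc

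The Egln1 stretch held 1 core, which begins at position -56 from the start, and a further core begins at 3, outside the letters printed. The Hif1a stretch held 3 matches, at -229, -228 and -164, of which the first pair is 1 palindrome, CACGTG, read on both strands. The Egln3 stretch held 0. Of all 10 genes 4 had a core in the 300 bases (40.0%, with Arnt and Cited2 beside these), as did 41.6% of 33469 rat promoters, 61.6% of 9750 promoters of genes tested and 74.0% of 50 promoters of the HIF target genes listed below. Sites farther from the start are not covered by these windows, and a match is letters only, not a measured binding site.

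Egln1, on chromosome 19 from 57662278 to 57699113 (rn6), stood at 31.8, 26.5 and 25 FPKM in PS, 251, 248 and 282 in ULA and 46.9, 46.5 and 44.5 in OPC. All 3 ULA libraries lay far above the other 6, and the OPC libraries lay just above the PS libraries. Its log2 fold change was 3.19 (standard error 0.08) for ULA vs PS (adjusted p = 1.27e-09 from limma), 0.72 (0.08) for OPC vs PS (adjusted p = 4.63e-05) and -2.47 (0.08) for OPC vs ULA (adjusted p = 4.21e-08). In ULA it was the highest of the 10 genes, above 98.3% of all genes tested, against 79.6% in PS and 88.0% in OPC.

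Egln3, on chromosome 6 from 75050329 to 75075795 (rn6), stood at 10.5, 9.28 and 9.36 FPKM in PS, 163, 146 and 172 in ULA and 74.1, 72.3 and 73.1 in OPC. Here the OPC libraries stood apart from both other groups, well above PS and below ULA. The log2 fold change was 3.91 (standard error 0.06) for ULA vs PS (adjusted p = 1.18e-10 from limma), 2.79 (0.06) for OPC vs PS (adjusted p = 9.30e-10) and -1.12 (0.06) for OPC vs ULA (adjusted p = 9.07e-07). Egln3 thus moved from the middle of the genes tested in PS (51.5% below it) to above 93.0% of them in OPC and 97.3% in ULA.

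Egln2, on chromosome 1 from 83969457 to 83977236, was far steadier. It stood at 14.9, 17.4 and 17.3 FPKM in PS, 19.5, 21.0 and 20.2 in ULA and 23.1, 22.8 and 21.9 in OPC. Groups did not overlap, but the steps were small. It was higher than in PS by 0.28 in ULA (adjusted p = 0.00251 from limma) and by 0.43 in OPC (adjusted p = 1.80e-04). Between OPC and ULA the difference of 0.15 (95% interval 0.01 to 0.29) was not called (adjusted p = 0.0613 from limma), and it was 0.08 after upper-quartile rescaling. Its last 103 bases overlap Cyp2t1 on the opposite strand, a gene at a mean of 1.55 FPKM, and the sources used here do not say whether reads were counted by strand.

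**Figure D2:**
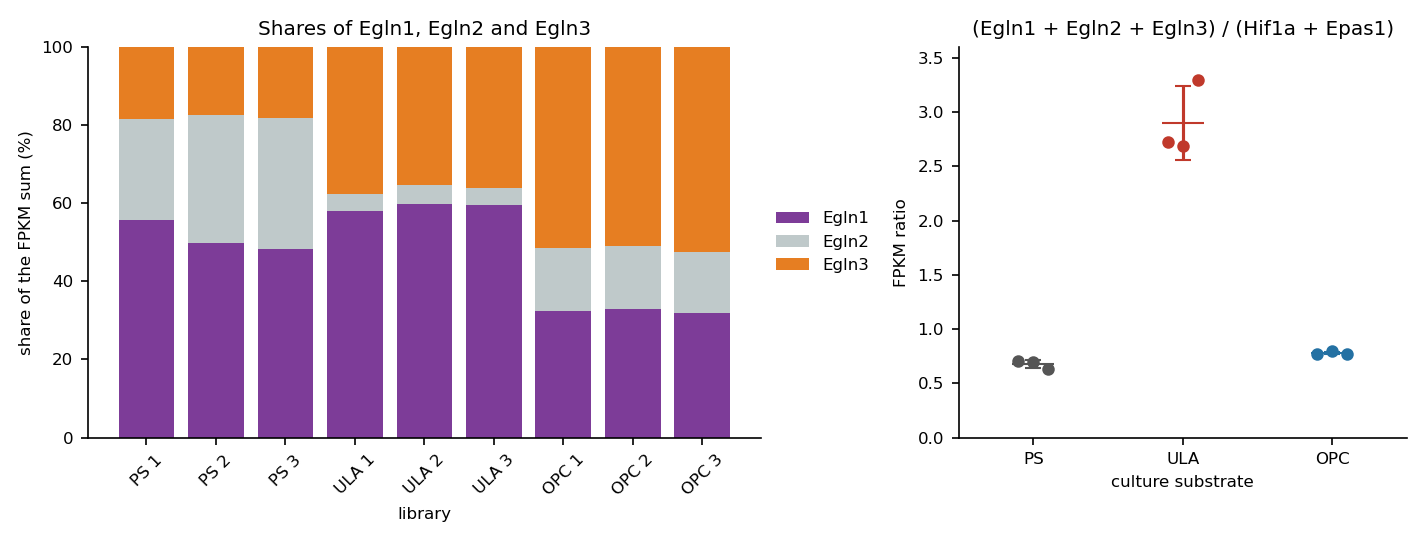
Left, the share (%) of the summed FPKM of Egln1, Egln2 and Egln3 that each gene held in each of the 9 libraries. Right, that sum divided by the sum of Hif1a and Epas1 (FPKM ratio, points are libraries and bars the mean and SD). Egln3 is the largest share in the 3 OPC libraries (51.0 to 52.4%) and Egln1 in the other 6 (48.4 to 59.7%).

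Within libraries, the makeup of the prolyl hydroxylase RNA differed between all 3 groups. Egln1 held 51.3 ± 3.82% of the summed FPKM of the family in PS, 59.1 ± 0.994% in ULA and 32.4 ± 0.483% in OPC. Egln3 held 18 ± 0.499%, 36.3 ± 1.19% and 51.6 ± 0.697%. Egln2 held 30.7 ± 4.13% in PS, 4.61 ± 0.410% in ULA and 15.9 ± 0.215% in OPC. No pair of groups overlapped in any of these shares, each at an exact two-sided permutation p = 0.1, the smallest possible here. Egln1 over Egln3 was 2.85 ± 0.177 in PS, 1.63 ± 0.0789 in ULA and 0.628 ± 0.0178 in OPC, so that Egln3 was the more abundant of both only in the OPC libraries.

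The family summed to 54.0 ± 2.89 FPKM in PS, 440.8 ± 30.0 in ULA and 142 ± 2.29 in OPC. Set against the sum of the alpha subunits, that was 0.679 ± 0.0384, 2.90 ± 0.341 and 0.781 ± 0.0121 hydroxylase FPKM per alpha subunit FPKM. OPC and PS were close on this ratio, with 0.774 to 0.795 in OPC and 0.634 to 0.705 in PS, and did not overlap (exact two-sided permutation p = 0.1). Cd68 and with it the macrophage marker sum had the same order of groups as Egln1, Egln3 and Vhl (PS under OPC under ULA), at group means of 3.04, 23.9 and 39.8 FPKM. Lyz2, the other macrophage marker that passed the filter, had the same order of means, at 0.220, 0.456 and 1.15 FPKM. Its difference between OPC and PS was not called (adjusted p = 0.0984 from limma). The defining leukocyte markers Ptprc, Adgre1 and Csf1r were at group means of at most 0.424 FPKM. In PS, OPC and ULA, Csf1r stood at 0.262, 0.132 and 0.424 FPKM and Ptprc at 0.00383, 0.0275 and 0.00806, which are other orders. Adgre1, at 0, 0.108 and 0.110 FPKM, had the order of Cd68. The part of such cells in the Egln1, Egln3 and Vhl levels was not tested.

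Hif1an encodes FIH, the asparaginyl hydroxylase that blocks coactivator binding, and lies on chromosome 1 from 264309214 to 264319267. It stood at 7.75, 9.63 and 7.53 FPKM in PS, 9.36, 12.0 and 11.7 in ULA and 11.3, 10.6 and 11.2 in OPC. Its levels in ULA and OPC had the same mean of 11.0 FPKM, and their log2 difference of 0.01 had a 95% interval of -0.23 to 0.25 (adjusted p = 0.960 from limma). It was higher than in PS by 0.37 in ULA, where 1 library of each group overlapped (adjusted p = 0.0109 from limma), and by 0.38 in OPC, with no overlap (adjusted p = 0.0107).

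Vhl, on chromosome 4 from 145580799 to 145587845, encodes the subunit of the ubiquitin ligase that recognizes the hydroxylated alpha subunit. It stood at 11.8, 12.5 and 13.2 FPKM in PS, 23.0, 31.6 and 25.3 in ULA and 23.2, 21.2 and 20.1 in OPC. Every ULA and OPC library lay above every PS library, at log2 fold changes of 1.02 (standard error 0.10, adjusted p = 1.55e-05 from limma) and 0.74 (0.10, adjusted p = 1.80e-04). OPC and ULA overlapped, and the difference of -0.29 (0.10, adjusted p = 0.0424 from limma) was lost in 11 of 15 alternative settings. It was -0.16 (adjusted p = 0.107) without ULA replicate 2, the highest library, and adjusted p was 0.124 without OPC replicate 3 and 0.0950 without OPC replicate 2.

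Cited2, on chromosome 1 from 12823363 to 12825786, encodes a HIF target that competes with the alpha subunits for the coactivators CBP and p300. It was the highest of the 10 genes in PS, at 62.1, 65.8 and 59.0 FPKM, with 68.6, 59.1 and 64.3 in ULA and 71.3, 69.4 and 75.3 in OPC. ULA and PS overlapped, with a difference of 0.04 (95% interval -0.10 to 0.17, adjusted p = 0.606 from limma), and the OPC libraries lay above all others. The log2 difference was 0.17 from ULA (adjusted p = 0.0396 from limma) and 0.21 from PS (adjusted p = 0.0137). After upper-quartile rescaling these were 0.10 (adjusted p = 0.239) and 0.13 (adjusted p = 0.128), and the call against ULA was lost in 9 of 15 alternative settings, among them leaving out ULA replicate 2 (adjusted p = 0.127) or OPC replicate 3 (adjusted p = 0.121).

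**Figure D3:**
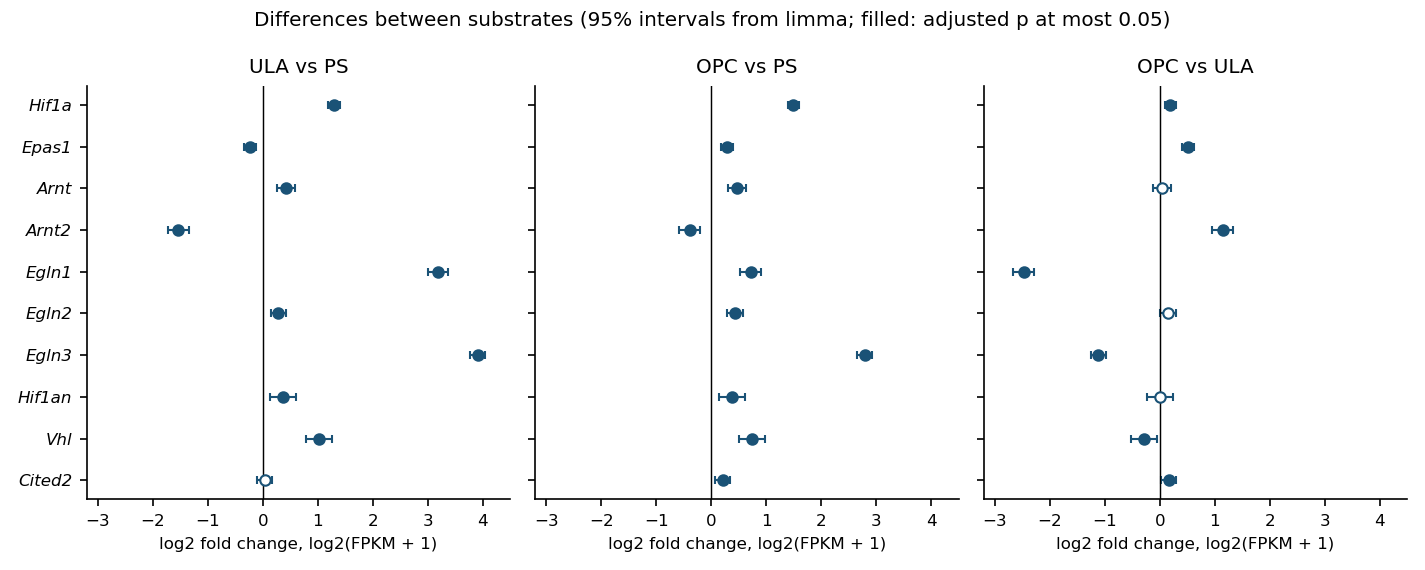
Log2 fold changes of FPKM + 1 for the 10 genes in ULA vs PS, OPC vs PS and OPC vs ULA. Bars are 95% intervals from limma and filled points have an adjusted p of at most 0.05. Egln1 and Egln3 are the points past -1 between OPC and ULA, and Arnt, Egln2 and Hif1an are the open ones there.

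Ordered by level, the 10 genes ran differently on each substrate. In PS, Cited2 and Hif1a led, followed by Egln1 and Epas1, whose libraries overlapped, then Arnt and Egln2, which also overlapped, Vhl, Egln3 and Hif1an, which overlapped, and Arnt2. In ULA, Egln1, Egln3, Hif1a and Cited2 led in that order with no overlap, followed by Vhl, Arnt and Epas1, each overlapping the next, then Egln2, Hif1an and Arnt2. In OPC, Hif1a led, followed by Egln3 and Cited2, which overlapped, then Egln1, Epas1, Arnt, Egln2 and Vhl, of which only Egln2 and Vhl overlapped as neighbours, and Hif1an and Arnt2. Egln3 therefore ranked eighth of the 10 genes in PS and second in ULA and OPC.

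Most of the HIF target genes tested here rose in ULA, as Egln1 and Egln3 did. Their list was drawn up with earlier results of these data known. Of 55 listed HIF targets outside the 10 genes, 53 matched the table and 49 were tested. Between ULA and PS, 42 rose and 6 fell, where 38.4% and 30.5% of all genes did (median log2 fold change 1.82, against 0.06 over all genes), and 39 and 3 did so by at least 1. They include the glucose transporter Slc2a1 (27.4 ± 1.47 FPKM in PS and 316.5 ± 17.5 in ULA, log2 fold change 3.48), the lactate exporter Slc16a3 (4.04 ± 0.0904 and 37.6 ± 0.476, 2.94) and the mitophagy receptor Bnip3 (39.2 ± 0.348 and 517 ± 31.8, 3.69). Tfrc, the transferrin receptor gene, fell by 1.23.

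Between OPC and ULA, 43 of the 49 targets fell, 31 of them by at least 1, and 3 rose, where 21.7% and 32.2% of all genes did (median -1.27, against 0.06 over all genes). Slc2a1 stood at 68.6 ± 4.37 FPKM in OPC (log2 fold change -2.19), Bnip3 at 74.4 ± 3.11 (-2.78), the glycolysis enzyme gene Pgk1 at 228 ± 7.57 (-1.91) and Ndufa4l2, which encodes a mitochondrial protein that lowers respiration, at 15.9 ± 1.27 (-3.41). Those that rose include Ankzf1 (0.82) and Tfrc (0.46). Between OPC and PS, 35 targets rose and 9 fell, where 40.4% and 23.9% of all genes did (median 0.55, against 0.11), with Angptl4, a lipase inhibitor gene, up by 3.46 and Vldlr, a lipoprotein receptor gene, lower (-3.11). All of these had adjusted p-values from limma of at most 1.38e-04.

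To place OPC between the other substrates, the PS mean of log2(FPKM + 1) was set to 0 and the ULA mean to 1 for each gene that was higher in ULA by at least 1. Egln1 in OPC stood at 0.224 (0.21 to 0.233 over the 3 libraries), Egln3 at 0.714 (0.71 to 0.719), Vhl at 0.72 (0.63 to 0.826) and Hif1a at 1.15 (1.14 to 1.18). The 39 HIF targets of this kind had a median of 0.317 (quartiles 0.156 and 0.484), from -0.171 for Car9 to 1.02 for Ddit4, and all 1053 such genes had a median of 0.686 (0.401 and 0.969). Egln1 lay within the quartiles of the targets, 4 of the 39 lay above Egln3, and 0 lay above Hif1a. Arnt2, which was lower in ULA, stood at 0.254 on the same scale. These positions are a description, since the genes were taken by their difference between ULA and PS.

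**Figure D4:**
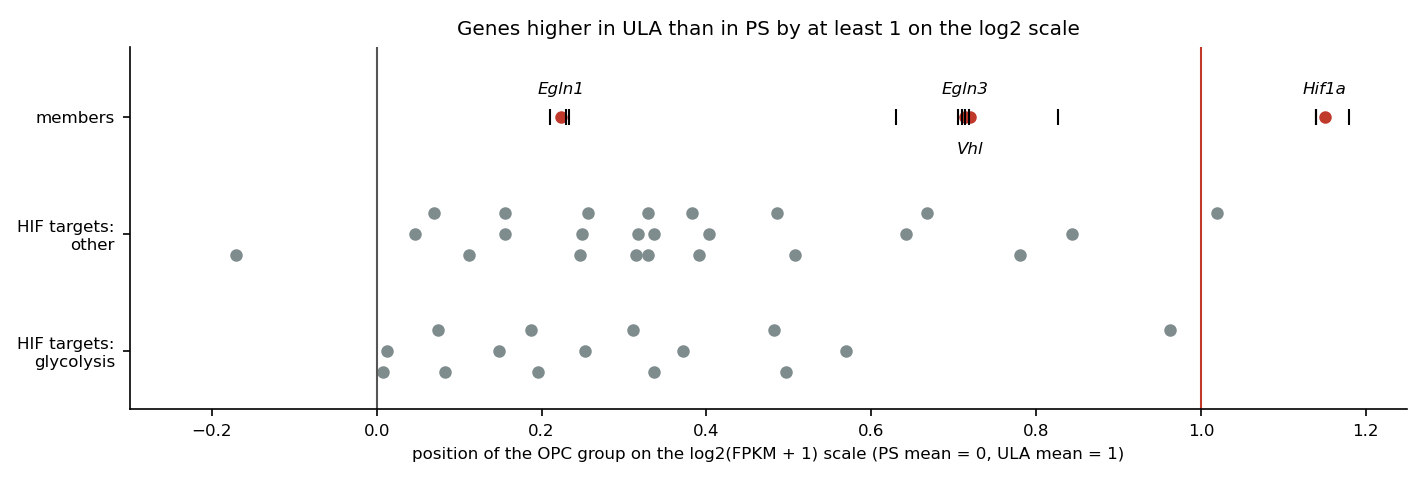
Position of the OPC group on the log2(FPKM + 1) scale for genes higher in ULA than in PS by at least 1, with the PS mean at 0 and the ULA mean at 1. Grey points are HIF target genes in 2 lists, red points are Hif1a, Egln1, Egln3 and Vhl, and the black ticks are their 3 OPC libraries. Egln1 lies at 0.224 among the targets, Egln3 and Vhl at 0.714 and 0.72, and Hif1a at 1.15, past the ULA mean.

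Other genes of the pathway were read from lists, whose counts are to be set against the shares of all genes called higher and lower (38.4% and 30.5% between ULA and PS, 40.4% and 23.9% between OPC and PS, and 32.2% and 21.7% between OPC and ULA) and whose medians against those of all genes (0.06, 0.11 and 0.06). Among 7 tested relatives of the bHLH-PAS family, to which the alpha and beta subunits belong, 4 rose and 1 fell between ULA and PS, 5 rose and 0 fell between OPC and PS, and 4 rose and 2 fell between OPC and ULA, with medians of 0.41, 0.54 and 0.21. The 4 higher between ULA and PS are 4 of only 7 genes, and no test of any list was run. Npas2, a clock factor, stood at 0.822 ± 0.0128 FPKM in PS, 7.62 ± 0.334 in ULA and 4.02 ± 0.301 in OPC, the order of groups that Egln3 also had. Ahr, the dioxin receptor that shares Arnt as its partner, stood at 67.9 ± 2.34, 42.9 ± 0.756 and 65.0 ± 5.0 FPKM, lower in ULA than in PS (log2 fold change -0.65, adjusted p = 2.94e-06 from limma). Its repressor Ahrr stood at 0.261 ± 0.0997, 1.27 ± 0.0994 and 9.08 ± 2.06 FPKM, and was higher in OPC than in ULA by 2.13 (adjusted p = 2.68e-06).

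VHL works in a ubiquitin ligase with several partners. Of 10 partner genes tested, 1 rose and 5 fell between ULA and PS (38.4% and 30.5% of all genes), 1 rose and 2 fell between OPC and PS (40.4% and 23.9%), and 4 rose and 0 fell between OPC and ULA (32.2% and 21.7%). Their medians were -0.18, -0.05 and 0.10, and the 4 higher between OPC and ULA are near the background. Cul2, the scaffold of the ligase, stood at 11.9 ± 0.610 FPKM in PS, 9.06 ± 0.636 in ULA and 11.8 ± 0.418 in OPC, and was higher in OPC than in ULA by 0.35 (adjusted p = 9.35e-04 from limma). Nedd8, whose product activates cullins, stood at 65.0 ± 3.85, 47.8 ± 2.07 and 59.3 ± 2.42 FPKM and fell between PS and ULA (log2 fold change -0.44, adjusted p = 4.97e-05). Ube2r2 was the partner that rose in ULA (0.26, adjusted p = 9.58e-05).

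Of 12 other genes that affect HIF stability, 7 rose and 3 fell between ULA and PS (38.4% and 30.5% of all genes), 6 rose and 3 fell between OPC and PS (40.4% and 23.9%), and 1 rose and 3 fell between OPC and ULA (32.2% and 21.7%). Their medians were 0.20, 0.15 and -0.06, and the counts that fell are near the background in all 3 comparisons. Os9, whose product binds HIF-1alpha and is also a lectin of the endoplasmic reticulum, stood at 58.6 ± 1.06 FPKM in PS, 114 ± 1.10 in ULA and 87.2 ± 2.43 in OPC (log2 fold change 0.95 for ULA vs PS, adjusted p = 4.84e-09 from limma). Uchl1, a deubiquitinase gene, stood at 79.7 ± 4.24, 15.8 ± 0.464 and 17.0 ± 0.706 FPKM (-2.26 for ULA vs PS, adjusted p = 4.99e-10). Siah2, a ubiquitin ligase gene whose product targets PHD3 and PHD1, stood at 5.81 ± 0.451, 3.36 ± 0.212 and 2.91 ± 0.211 FPKM (-0.64 for ULA vs PS, adjusted p = 5.89e-05).

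Among 7 tested genes of coactivators and other proteins that act with HIF in transcription, 3 rose and 2 fell between ULA and PS (38.4% and 30.5% of all genes), 7 rose and 0 fell between OPC and PS (40.4% and 23.9%), and 5 rose and 1 fell between OPC and ULA (32.2% and 21.7%). Their medians were 0.03, 0.18 and 0.30. Ncoa3, a nuclear receptor coactivator gene, stood at 6.95 ± 0.0303 FPKM in PS, 7.09 ± 0.248 in ULA and 10.7 ± 0.431 in OPC (log2 fold change 0.53 for OPC vs ULA, adjusted p = 2.28e-05 from limma), and Crebbp, which encodes the coactivator CBP, at 6.36 ± 0.281, 5.63 ± 0.0364 and 7.26 ± 0.402 (0.32, adjusted p = 0.00143). Pkm, which encodes a glycolysis enzyme that also binds HIF-1alpha, was the exception and fell by 0.94 between ULA and OPC. Cited4, a relative of Cited2, was not tested, since it was below the filter on low values, at 1.09 ± 0.313, 0.301 ± 0.123 and 0.0437 ± 0.0757 FPKM.

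The prolyl hydroxylases of HIF belong to a larger group of oxygen-dependent enzymes. Of 15 others tested, 9 rose and 3 fell between ULA and PS (38.4% and 30.5% of all genes), 6 rose and 7 fell between OPC and PS (40.4% and 23.9%), and 1 rose and 11 fell between OPC and ULA (32.2% and 21.7%). Their medians were 0.44, -0.09 and -0.39, and the 6 higher between OPC and PS are at the background share. Kdm3a, a histone demethylase gene, stood at 8.79 ± 0.426 FPKM in PS, 35.3 ± 0.495 in ULA and 18.8 ± 0.823 in OPC (log2 fold change 1.89 for ULA vs PS, adjusted p = 1.02e-09 from limma). P4ha2, a collagen prolyl hydroxylase gene, stood at 90.8 ± 3.09, 220.3 ± 14.1 and 72.1 ± 4.77 FPKM (-1.60 for OPC vs ULA, adjusted p = 6.77e-08), so that its OPC level was under that of PS, unlike Egln1 and Egln3. P4ha3, another of these, fell on both ULA and OPC compared with PS (70.2 ± 1.09, 25.6 ± 1.90 and 19.2 ± 1.01 FPKM). Reference genes moved in both directions. Of 10, 3 rose and 4 fell between ULA and PS, and 5 rose and 2 fell between OPC and ULA, with 0 past a log2 fold change of 1. Between OPC and PS, 4 rose and 3 fell. There B2m (1.145) and Gusb (1.08) were higher and Rplp0 (-1.21) was lower by at least 1.

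The genes whose log2(FPKM + 1) followed each gene most closely over the 9 libraries were looked up among 8734 genes with a mean of at least 5 FPKM. For Egln1 they were Ndrg2 (Pearson r = 0.999), Bnip3 (0.997) and Bnip3l (0.997), of which the last pair are mitophagy receptor genes and HIF targets. For Egln3 they were Htra3, a serine protease gene, C3, a complement gene, and Mt2A, a metallothionein gene (r from 0.999 to 1.00). For Hif1a they were Tp53inp2, Adamts15 and Dapk1 (each 0.999), for Arnt2 Gatad2a (0.996), Hspa8 (0.995) and Myo1d (0.994), and for Vhl Cnep1r1 (0.992), Klf10 (0.990) and Rrm2b (0.988). Each of these 5 genes had from 333 (Vhl) to 722 (Hif1a) genes with r over 0.95, since the points fall into 3 groups of libraries, so these are descriptions of shared level patterns and no test was made of them.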

How the data were processed

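The authors aligned RNA-Seq reads of 9 libraries to rn6 with HISAT2 2.1, per the submitters' processing notes, which also name StringTie 1.3.0, while the study's methods name featureCounts. The authors deposited 1 table of 19919 genes. Its unit is not stated and was read as FPKM from the deposited values, of which 82.6% are not whole. Among genes under 0.3 FPKM (1263 to 1740 per library), 59.9 to 65.0% had ratios to the first PS library that match whole reads at a single step within 0.01 (log2), and 0.868 to 1.34% did so at shifted steps. Absolute depth is unknown, which allows no counting interval, and a 0 does not show absence. Of the library pairs 0 were identical.

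For the 12513 genes with at least 1 FPKM in at least 3 libraries, log2(FPKM + 1) was fitted for the 3 groups together in limma 3.58.1 (R 4.3.3), with a mean-variance trend and 6 degrees of freedom left, and 3 two-sided contrasts were adjusted over all genes by the Benjamini-Hochberg method. The fit was tested on simulated data, where it called 53 of 67 log2 changes of 0.5 between OPC and ULA, 65 of 67 of 1 and 66 of 66 of 2. Genes at low levels were not among those changed, and changes under 0.5 were not simulated. Ratios within a library were compared by exact permutation with scipy 1.17.1. Alternatives were a pseudocount of 0.1, no filter, upper-quartile rescaling, no trend, a replicate block, only the 2 groups compared, and each library left out.

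The 10 genes and 13 further lists (164 genes, with 153 found once in the table, 1 found several times and left out, and 10 not analysed here) were chosen with earlier results of these data known. Named genes are the 10 genes, up to 3 list genes higher and 3 lower per comparison with the smallest adjusted p, and the 3 most similar genes of each of the 10 with a called log2 fold change of at least 1. Car9, Hif3a, Cited4, Cyp2t1, Ptprc, Adgre1, Csf1r, Vwf, Kdr, Tek, Tie1 and Hprt1 were named after their values were seen. Some list genes that meet the rule are not reported here. Promoters are from RefSeq (GRCr8).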

Additional observations from a re-analysis of the deposited data

How the results depend on the processing

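Each of 30 differences (10 genes in 3 comparisons) was recomputed under 15 alternatives. No called difference changed direction, and the uncalled ones of Arnt and Hif1an (OPC vs ULA) and Cited2 (ULA vs PS) changed sign under 1, 4 and 2 of them. Of the calls, only those of Vhl and Cited2 between OPC and ULA and of Cited2 between OPC and PS were lost under any alternative, 22 losses in all, 13 of them on leaving out a library, and Egln2 between OPC and ULA gained a call with only those 2 groups in the fit (adjusted p = 0.0281 from limma) and without PS replicate 1 (0.0166). The call of Vhl between OPC and ULA was lost with no filter (adjusted p = 0.0768), with no trend (0.0575), with only the 2 groups compared (0.0689), and without PS replicates (0.0508 to 0.0579), ULA replicate 2 or 3 (0.107 and 0.0609) or OPC replicate 2 or 3 (0.0950 and 0.124). The call of Cited2 there was lost with no filter (0.0664), upper-quartile rescaling (0.239), no trend (0.0645) and without PS replicate 1 (0.0544), ULA replicate 2 or 3 (0.127 and 0.0767) or OPC replicate 1 or 3 (0.0743 and 0.121), and against PS with upper-quartile rescaling (0.128) and without PS replicate 3 (0.0535). The number of the 10 genes called ranged from 5 to 7 between OPC and ULA, was 9 in every setting between ULA and PS, and ranged from 9 to 10 between OPC and PS. With a log2 fold change of at least 1 it stayed at 3, at 4 to 5 and at 2. The number of HIF targets called, whatever their fold, was 46 to 47, 45 to 48 and 44 to 45. Over all genes, 542 passed the fold threshold between OPC and ULA, and 892 with a pseudocount of 0.1.

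Same-numbered libraries did not deviate together (9 correlations from -0.0394 to 0.0542), so no pairing by number was visible in the values. Whether same-numbered cultures shared an isolation cannot be told from this. With the replicate block, 5 of the 10 genes were called between OPC and ULA in place of 7, Vhl (adjusted p = 0.0545) and Cited2 (0.0629) being lost, with 9 and 10 in the other comparisons. Unknown absolute depth and 3 libraries per group limit what small differences can show, and RNA levels do not report HIF protein.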
